A study of Mus musculus with 12 samples.

Results

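The genes of the synaptonemal complex and of the chromosome axis beneath it were examined in primordial germ cells of female mouse embryos, which give rise to the egg cells. The set was chosen by name from what the proteins are known to build, and held 10 of the 35976 genes in the count table: Sycp1, Syce1, Syce2, Syce3, Tex12 and 4930447C04Rik for the central region, and Sycp2, Sycp3, Hormad1 and Hormad2 for the axis. 4930447C04Rik is the older symbol of Six6os1. These genes and the lists of other genes below were chosen with earlier results of these data known. All 10 had enough reads to be tested, and the lowest count of any of them in any library was 30, for Syce3 in the second HxD library.

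In the prophase of the first meiotic division each chromosome folds into loops along a protein axis, and paired chromosomes are then joined along their length by the synaptonemal complex, a ladder-like structure. SYCP2 and SYCP3 form the axis together with meiotic cohesin, and HORMAD1 and HORMAD2 sit on it until synapsis. SYCP1 dimers reach across from each axis, and the central element proteins SYCE1, SYCE2, SYCE3, TEX12 and SIX6OS1 hold them together in the middle. In the mouse fetal ovary germ cells leave their mitotic phase and enter meiosis around the age studied here, under retinoic acid signalling, STRA8 and its partner MEIOSIN.

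Gene expression was measured by RNA sequencing of cells from E14.5 embryos that had been sorted for a green fluorescent Oct4 reporter. The 12 libraries formed 4 groups of 3. Wild-type cells were WT, HxD cells were homozygous for a catalytically dead Tet1 (Tet1HxD/HxD), V cells were homozygous for a Tet1 allele described as stalling at 5-hydroxymethylcytosine (Tet1V/V), and KO cells lacked Tet1 (Tet1-/-). TET1 oxidizes 5-methylcytosine in DNA. The comparisons with WT address whether transcripts of the set depend on TET1 or on its catalytic steps, and those between mutants whether the alleles differ. The labels name no deletion restricted to germ cells, so effects in the germ cells and in the tissue around them cannot be told apart. Nor do they say whether a group's 3 libraries were separate embryos, and p-values therefore cover only a spread between libraries that can be technical.

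Total counts ranged from 18471158 to 29495313 per library. Libraries differed in how many rare transcripts they held: 2936 genes averaged between 1 and 5 CPM (TMM-normalized counts scaled to a common library total), and 43.7% of them were at 0 in HxD1, 45.7% in KO3, and between 1.77% and 27.1% in the other 10 libraries. The labelled cell type was checked by its markers. The 8 germ cell markers summed to between 2903 and 3855 CPM in every library, with Dazl the highest on average. The sum hides opposite changes. For the average of the mutants against WT, edgeR called 1 marker lower (Dazl) and 3 higher, against 0.637% and 0.588% of all genes. Those of pre-granulosa cells summed to between 9.06 and 64.1 CPM. Irx3 was the highest of them on average, and Foxl2, Gata4, Lhx9 and Runx1 were below a mean of 1 CPM. The highest sum was that of V1, with Fst at 7.36, Gata4 at 4.49 and Foxl2 at 3.31 CPM, followed by WT1 (50.9 CPM). The part of such cells in the results was not tested. Stromal markers summed to between 3.13 and 16.4 CPM, and endothelial and blood markers to at most 14.2 CPM. Tet1 itself was at 91.4, 180.1 and 215 CPM in WT and at 131, 158 and 80.8 CPM in KO, and this difference was not called (log2 fold change -0.40 ± 0.24 (SE), edgeR adjusted p = 0.484). Reads over the whole gene do not show which part of it was deleted, and the knockout could not be checked this way.

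The promoters of the set are shown because TET1 acts on methylated CpG and because the genes were low together in the mutants. Methylation was not measured in these libraries. Below are the 150 bases before the RefSeq start of 4 genes, from GRCm38.p6, 5′ to 3′ along the gene's strand, with every CpG in capitals. Sycp1, Sycp2 and Sycp3 had the largest differences among well-counted genes of the set and Syce2 the smallest. The stretches are chr3:102936101-102936250 (minus strand) for Sycp1, chr2:178407659-178407808 (minus strand) for Sycp2, chr10:88459437-88459586 (plus strand) for Sycp3 and chr8:84871961-84872110 (plus strand) for Syce2.
Sycp1: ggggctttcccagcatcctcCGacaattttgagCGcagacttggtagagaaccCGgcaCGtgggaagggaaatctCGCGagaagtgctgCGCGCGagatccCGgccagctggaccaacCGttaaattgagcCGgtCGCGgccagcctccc
Sycp2: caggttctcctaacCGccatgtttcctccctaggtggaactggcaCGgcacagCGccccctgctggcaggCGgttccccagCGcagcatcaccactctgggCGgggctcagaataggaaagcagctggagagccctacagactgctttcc
Sycp3: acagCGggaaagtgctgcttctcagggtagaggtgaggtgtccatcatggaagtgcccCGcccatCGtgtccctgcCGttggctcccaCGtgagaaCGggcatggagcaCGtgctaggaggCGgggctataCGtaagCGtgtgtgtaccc
Syce2: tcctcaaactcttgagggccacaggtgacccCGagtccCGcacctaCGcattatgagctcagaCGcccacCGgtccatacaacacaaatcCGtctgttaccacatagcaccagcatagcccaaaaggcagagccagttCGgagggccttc

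These stretches held 14 CpG in Sycp1, 6 in Sycp2, 10 in Sycp3 and 7 in Syce2. In the wider RefSeq window of 300 bases (250 before and 50 after the start), the median over 32851 promoters was 7 CpG, and the first listed window of 9 of the 10 genes had more. The exception was Syce3, with 5 in its first window and 15 in its second. The upper quartile over all promoters was 20. Sycp1 had 21, Tex12 26, Hormad1 24 in both of its windows, and a second Syce2 start downstream of the first had 33. Sycp2, the gene with the deepest fold change in KO, had 10, and Sycp3 had 15. By the first listed windows Sycp1, Sycp2 and Sycp3 therefore had neither the most nor the fewest CpG of the set. By each gene's window with the most CpG, Sycp2 had the fewest. The canonical E-box, CACGTG, was matched in 6 of the 10 genes (Sycp1, Sycp3, Syce2, Tex12, 4930447C04Rik and Hormad1) and in 7.15% of all promoters. In the stretches shown it lies around the capitals as caCGtg, at 1 place in Sycp1 and 2 in Sycp3. A motif described for STRA8 and MEIOSIN binding, CNCCTCAG, was matched on either strand in 5 genes (Sycp1, Syce2, Tex12, 4930447C04Rik and Hormad2) against 7.94% of promoters. TGACG, the core of the cyclic AMP response element, was matched in 4 against 20.8%, and GCGGGA, an E2F6-type core, in 5 against 20.0%. Genes with a second window had more sequence to match, and a match is a description of letters only.

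Levels between genes were compared as CPM per kilobase of exon, with exon lengths from the GENCODE M21 annotation of GRCm38. In WT the order was Syce2 (143 ± 22.02 CPM per kb, mean ± SD, n = 3), Syce1 (77.2 ± 28.3), Sycp3 (74.2 ± 61.3), Sycp1 (70.7 ± 32.3), Hormad1 (62.5 ± 26.6), 4930447C04Rik (35.4 ± 15.9), Syce3 (25.2 ± 23.1), Hormad2 (24.9 ± 5.61), Tex12 (21.4 ± 16.6) and Sycp2 (10.4 ± 4.11). Syce2 was the highest and its lowest WT library (128 CPM per kb) lay above the highest library of Syce1 (109.8). From Syce1 to Hormad1, and again from 4930447C04Rik to Sycp2, neighbours in this order differed by less than the larger of their SDs. Syce2 ranked first, Syce1 second and Sycp2 last in all 4 groups. Sycp1 moved from the fourth place in WT to the fifth in HxD, the sixth in KO and the seventh in V. In each mutant the gene just above it was nearer than the SD of Sycp1, so these places are not distinct. In V, for example, Sycp1 was at 14.6 ± 8.54 and Hormad2 at 15.4 ± 2.80 CPM per kb.

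**Figure D1:**
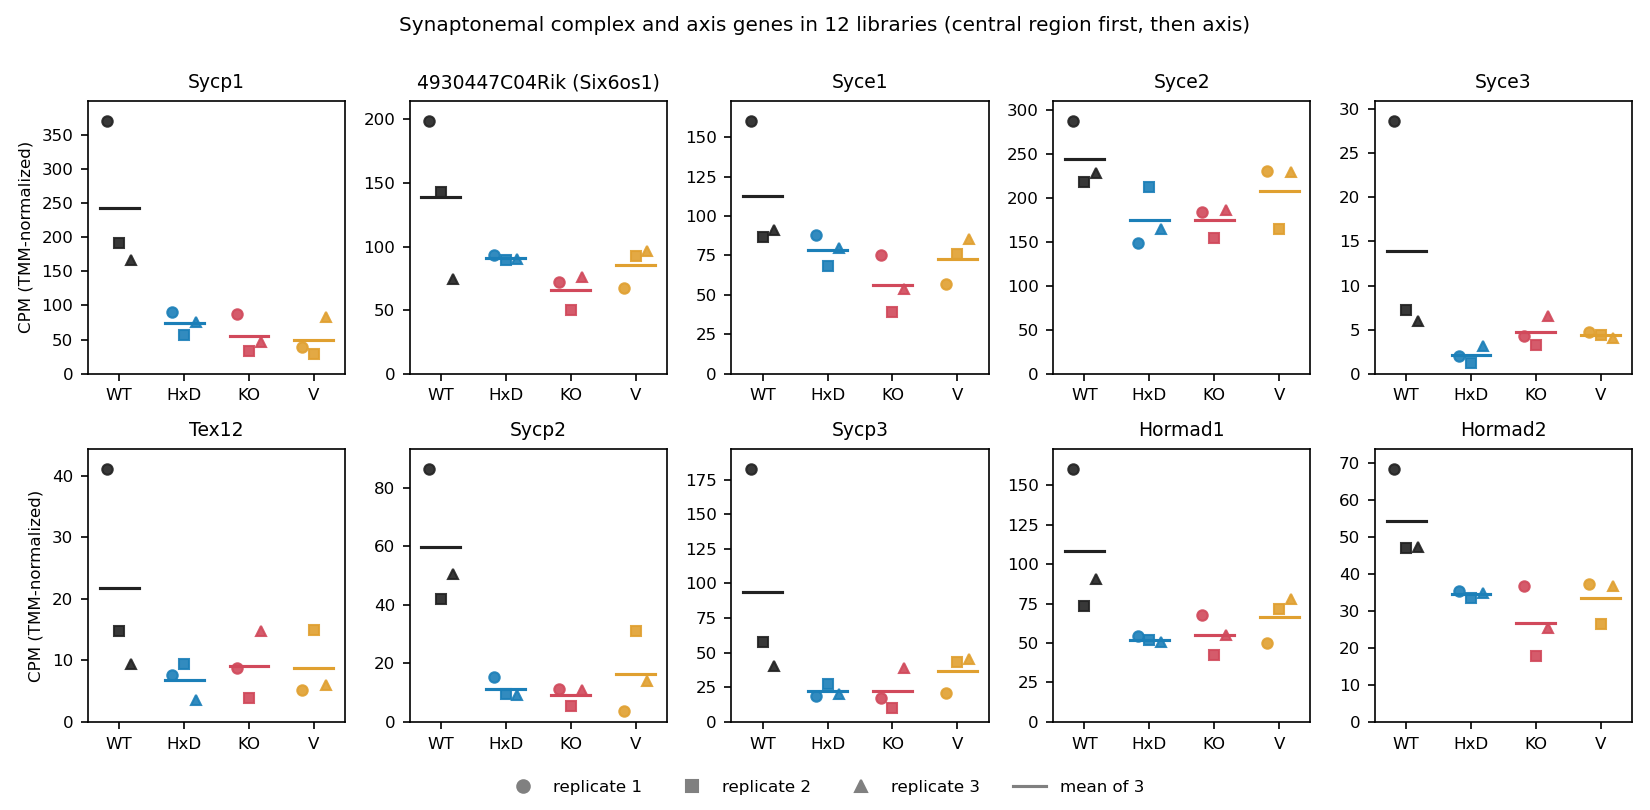
TMM-normalized CPM (vertical axis, linear, from 0) of each of the 10 genes in the 12 libraries, by group on the horizontal axis; symbols give the replicate number and the line the mean of 3. WT replicate 1 is the highest library in all 10 panels, and for Sycp1, Sycp2 and Hormad2 all 9 mutant libraries lie below the lowest WT library.

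Sycp1, which encodes the transverse filament, was lower in all 9 mutant libraries than in any WT library. It was at 370.2, 192 and 167 CPM in WT and at 90.6, 57.3 and 75.4 CPM in HxD. It was at 87.1, 33.3 and 46.3 CPM in KO and at 38.5, 28.4 and 83.5 CPM in V. No mutant group overlapped with WT, and the highest mutant value was that of HxD1. The log2 fold change was -2.13 ± 0.34 (SE) in KO and -2.28 ± 0.35 in V, a fall of 4.37-fold and 4.84-fold, and both were called lower by edgeR's quasi-likelihood test (Benjamini-Hochberg adjusted p = 0.00162 and 0.00214 over 16166 genes). In HxD it was -1.71 ± 0.34 with an adjusted p of 0.0592 in edgeR, which was not called. In RNA from sorted cells, fewer cells in meiotic prophase and less RNA per such cell cannot be told apart, and this holds for each result below.

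4930447C04Rik (Six6os1) and Syce1, whose products belong to the central element, differed less. 4930447C04Rik was at 199, 143 and 74.3 CPM in WT and at 93.6, 89.2 and 90.2 CPM in HxD. It was at 72.2, 49.9 and 76.2 CPM in KO and at 67.2, 92.4 and 96.8 CPM in V. WT spanned 2.67-fold, and its lowest library lay below all of HxD and within KO and V, so that only 3 of 9 mutant libraries were below all of WT. The KO difference (log2 -1.07 ± 0.25) was called lower (edgeR adjusted p = 0.0330) although the groups overlapped, and those of HxD (-0.61 ± 0.25) and V (-0.70 ± 0.25) were not (adjusted p in edgeR 0.611 and 0.314).

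Syce1 was at 160.3, 86.5 and 91.3 CPM in WT and at 87.8, 68.6 and 80.0 CPM in HxD. It was at 75.4, 38.9 and 53.7 CPM in KO and at 56.7, 75.9 and 85.5 CPM in V. Here KO and V lay below WT without overlap while the first HxD library lay within WT, and WT2 and WT3 were close to the top of HxD and V. Syce1 was called lower in KO (log2 -1.01 ± 0.25, edgeR adjusted p = 0.0428). Its log2 fold changes of -0.52 ± 0.25 in HxD and -0.63 ± 0.25 in V were not called (adjusted p in edgeR 0.685 and 0.394).

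Syce2, the most abundant gene of the set per length, differed least. SYCE2 forms the fibres of the central element together with TEX12. It was at 287, 217 and 228 CPM in WT and at 148, 212 and 165 CPM in HxD. It was at 184, 154 and 187 CPM in KO and at 229.8, 165 and 229.6 CPM in V. HxD and KO lay below WT without overlap, with HxD2 the nearest to it, and V1 and V3 lay within it. The log2 fold changes were -0.48 ± 0.19 in HxD, -0.48 ± 0.19 in KO and -0.23 ± 0.19 in V, and none was called by edgeR (adjusted p = 0.582, 0.239 and 0.777).

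Its partner Tex12 and Syce3, a small protein that links SYCP1 to the central element, had few reads and a wide spread in WT. Tex12 was at 41.1, 14.8 and 9.48 CPM in WT, against 3.62 to 9.38 in HxD, 3.81 to 14.7 in KO and 5.22 to 14.9 in V. Syce3 was at 28.7, 7.18 and 6.01 CPM in WT, against 1.25 to 3.10 in HxD, 3.23 to 6.52 in KO and 4.11 to 4.72 in V. In both genes the first WT library stood far above the other WT libraries, 3.38-fold over their mean for Tex12 and 4.34-fold for Syce3. The fold changes of Syce3 (log2 -2.71 ± 0.88 in HxD, -1.57 ± 0.85 in KO and -1.66 ± 0.85 in V) were large but not called by edgeR (adjusted p = 0.464, 0.426 and 0.541). Those of Tex12 ranged from -1.66 ± 0.65 in HxD to -1.26 ± 0.64 in KO and were not called either (smallest edgeR adjusted p = 0.395).

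Among axis genes Sycp2 and Sycp3, whose products form the filament of the axis, differed most. Sycp2 was at 86.3, 42.1 and 50.4 CPM in WT and at 15.3, 9.38 and 9.22 CPM in HxD. It was at 11.3, 5.51 and 10.7 CPM in KO and at 3.59, 31.0 and 13.99 CPM in V. All 9 mutant libraries were below WT, and V spanned the whole mutant range, with its second library the highest of the 9 and its first the lowest. Sycp2 was called lower in KO (log2 -2.70 ± 0.51, 6.49-fold, edgeR adjusted p = 0.00925). It was not called in HxD (-2.40 ± 0.51, edgeR adjusted p = 0.0838) or V (-1.87 ± 0.50, edgeR adjusted p = 0.120).

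Sycp3 was at 183, 58.0 and 40.5 CPM in WT and at 19.0, 27.3 and 20.1 CPM in HxD. It was at 17.4, 9.81 and 39.3 CPM in KO and at 20.7, 43.0 and 45.7 CPM in V. HxD and KO did not overlap with WT, but KO3 lay just below WT3, and V2 and V3 lay above it. Sycp3 was called lower in KO (log2 -2.08 ± 0.45, 4.23-fold, edgeR adjusted p = 0.0176), and was not called in HxD (-2.08 ± 0.45, edgeR adjusted p = 0.0838) or V (-1.36 ± 0.44, edgeR adjusted p = 0.234). Of its 1264 exon bases, 660 (52.2%) are shared with exons of Chpt1 on the opposite strand. The sources used here do not give the strand setting of the counting, and reads from that stretch may have been counted for either gene or for neither. Chpt1, an enzyme of choline phospholipid synthesis, was at 32.8, 53.7 and 29.2 CPM in WT and 33.0, 41.4 and 22.2 CPM in KO, with no call (log2 -0.26 ± 0.30, edgeR adjusted p = 0.775). No other gene of the set shares exon bases with another gene in that annotation.

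Hormad1 and Hormad2 encode HORMA domain proteins that mark the unsynapsed axis. Hormad1 was at 160.2, 73.5 and 90.6 CPM in WT and at 54.2, 51.7 and 50.4 CPM in HxD. It was at 67.8, 42.6 and 55.2 CPM in KO and at 49.9, 71.4 and 77.8 CPM in V, so that HxD and KO lay below WT and only V3 reached into it. Its fold changes (log2 -1.05 ± 0.26 in HxD, -0.97 ± 0.26 in KO and -0.70 ± 0.25 in V) were not called by edgeR (adjusted p = 0.185, 0.0532 and 0.314). Hormad2 was at 68.3, 47.0 and 47.3 CPM in WT and at 35.3, 33.5 and 34.9 CPM in HxD. It was at 36.7, 17.8 and 25.5 CPM in KO and at 37.3, 26.5 and 36.7 CPM in V. All 9 mutant libraries were below WT and the HxD libraries lay within 2 CPM of each other, yet no difference was called (log2 -0.65 ± 0.29 in HxD, -1.02 ± 0.29 in KO, -0.69 ± 0.29 in V, with edgeR adjusted p = 0.663, 0.0756 and 0.426).

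**Figure D2:**
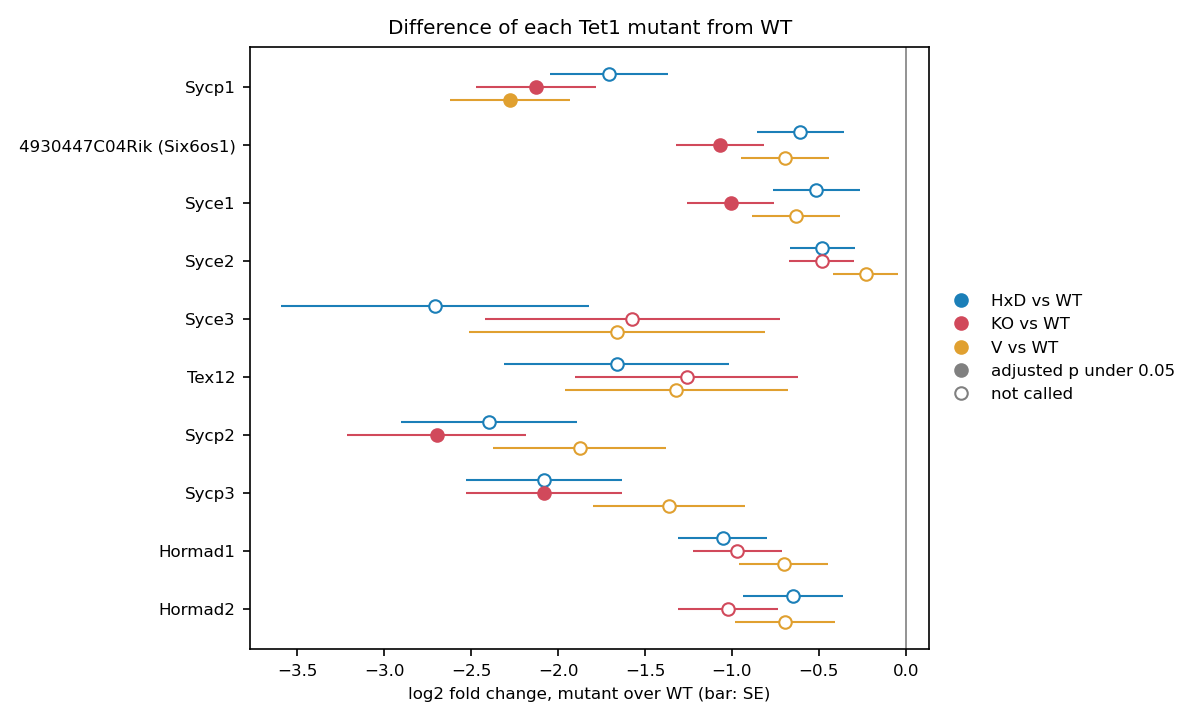
Log2 fold change of each mutant over WT (horizontal axis; bars, SE of the edgeR fit) for the 10 genes, with filled points for an adjusted p under 0.05. All 30 points lie below 0, and those filled are 5 in KO and 1 in V.

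Counted over the set, 5 of 10 genes were called lower in KO (Sycp1, Sycp2, Sycp3, Syce1 and 4930447C04Rik), where 0.495% of all genes tested were called lower. In V 1 gene was called lower (Sycp1), against 0.0866% of all genes. In HxD edgeR called 0, against 0.0247% of all genes, while all 10 had an unadjusted p under 0.05 and were lower. DESeq2 called 3 of them in HxD (Sycp2, Sycp3 and Syce3) and limma-voom 2 (Sycp1 and Sycp2). Over all 16166 genes DESeq2 called 29 lower in HxD and limma-voom 13, against 4 in edgeR. An unadjusted p under 0.05 with a lower mutant was reached by 2.6% of all genes in HxD. In KO 8 genes of the set reached it against 5.68% of all genes, and in V 8 against 4.04%. None was called higher, against 0.00619% of all genes in HxD, 0.724% in KO and 0.068% in V. The call in 1 mutant and not in another is no test of a difference between mutants. The 3 comparisons share the WT libraries, so their agreement is not 3 separate observations.

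The median log2 fold change of the 10 genes was -1.36 in HxD, -1.16 in KO and -1.01 in V. Over all genes tested it was -0.01, -0.02 and 0. All 10 genes were below 0 in each comparison, as were 50.5% of all genes in HxD, 51.1% in KO and 50% in V. The mutant and WT libraries did not overlap, with the mutant lower, for 8 genes in HxD (5.77% of all genes), 7 in KO (8.36%) and 5 in V (7.48%). In the average of the 3 mutants against WT, which uses all 12 libraries, 5 genes were called lower (0.637% of all genes) and 0 higher (0.588%): Sycp1 (log2 -2.04 ± 0.25, edgeR adjusted p = 2.46e-05), Sycp2 (-2.32 ± 0.36, adjusted p = 0.000532), Sycp3 (-1.84 ± 0.32, adjusted p = 0.00280), Hormad1 (-0.91 ± 0.20, adjusted p = 0.0177) and 4930447C04Rik (-0.79 ± 0.20, adjusted p = 0.0387). All 10 were below 0 (52.5% of all genes) with an unadjusted p under 0.05 (5.98%), and for 3 of them all mutant libraries were below all of WT (2.05%). The 5 not called in edgeR were Syce1, Syce2, Syce3, Tex12 and Hormad2, with adjusted p-values from 0.0675 (Syce1) to 0.218 (Syce2).

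The first WT library was the highest of all 12 for each of the 10 genes, from 1.29-fold (Syce2) to 4.34-fold (Syce3) over the mean of the other WT libraries. Without it every gene kept a fold change below 0 in each comparison, and the medians were -0.74 in HxD, -0.69 in KO and -0.46 in V. In KO only Sycp1 was then still called (log2 -1.69, edgeR adjusted p = 0.0191), with Sycp2 at -2.33 (edgeR adjusted p = 0.0779) and Sycp3 at -1.15 (edgeR adjusted p = 0.340). In V Sycp1 was also still called without it (log2 -1.84, edgeR adjusted p = 0.0190). For the average of the mutants Sycp1 (log2 -1.60, edgeR adjusted p = 0.00292) and Sycp2 (-1.96, edgeR adjusted p = 0.0394) were called. KO2 was the lowest library of all for 5 of the 10 genes, and without it Sycp1 alone was called in KO, with a median of -0.90 for the set. Without V1 no gene was called in V, Sycp1 being at an edgeR adjusted p of 0.0505. Calls over all genes tested moved as well. In KO they went from 197 to 31 without WT1 and to 77 without KO2, and in V from 25 to 2 without V1. Without WT3 they rose instead, to 357 in KO, 110 in V and 35 in HxD (5 with all libraries). The count of the set then rose to 6 in KO, 2 in V and 2 in HxD. Leaving out HxD1, KO1 and KO3 together, the libraries with the fewest rare transcripts, left KO2 alone in KO. The median log2 fold change of the set was then -1.86 in KO and -1.45 for the average of the mutants.

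**Figure D3:**
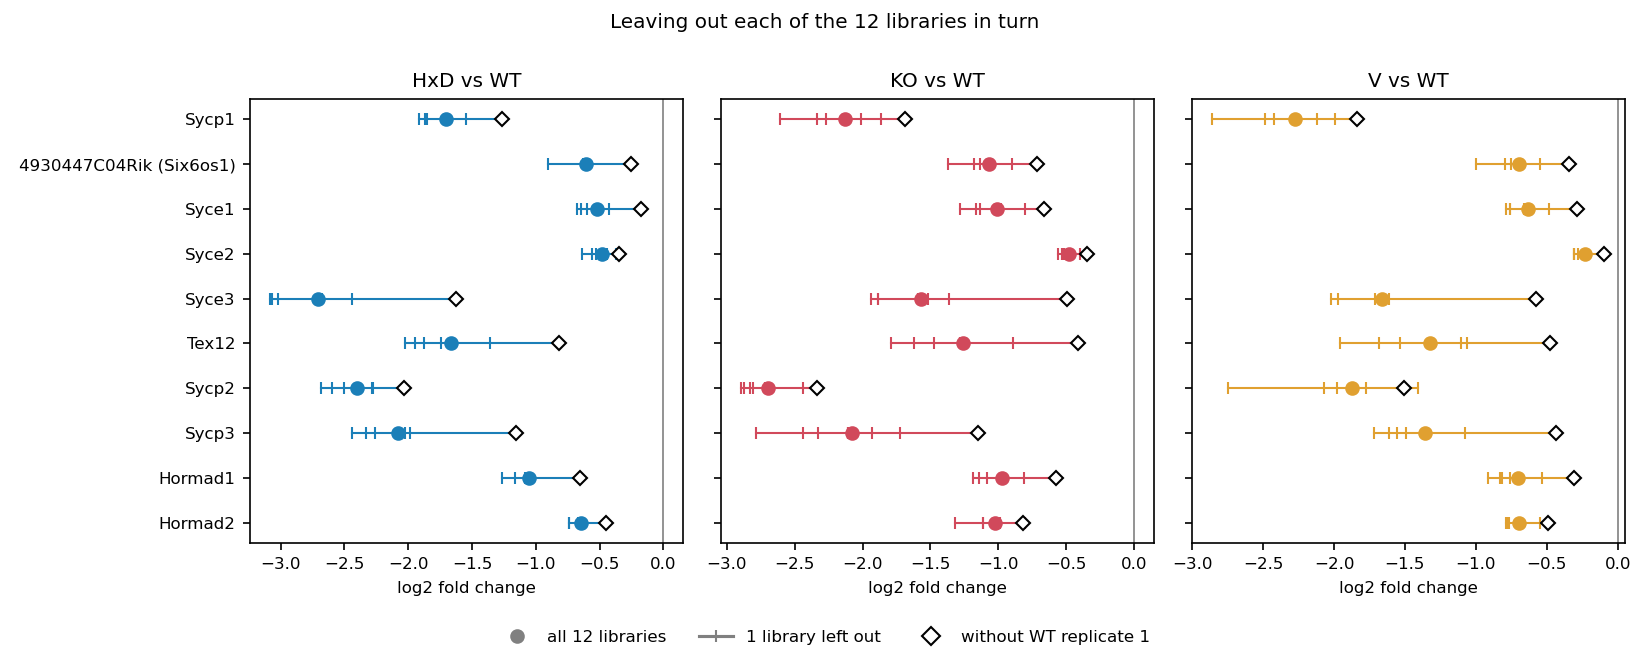
Log2 fold change of each mutant over WT (horizontal axis) with all 12 libraries (filled circles) and with each library left out in turn (ticks joined by a line); open diamonds mark the value without WT replicate 1. Every value lies below 0, and except for Sycp2 and Syce2 in V and Hormad2 in KO the diamond is the end nearest to 0, as for Syce3 in HxD, which went from -2.71 to -1.63.

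The set did not scale evenly within libraries. The 10 genes summed to 1584, 881 and 805 CPM in WT and to between 359 (KO2) and 679.8 (V3) CPM in the mutants, without overlap. Syce2 made up 18.1% to 28.4% of the reads of the set in WT and 26.8% to 44.7% in the mutants, and Sycp1 20.7% to 23.4% in WT and 5.14% to 16.4% in the mutants. Sycp1 reads per Syce2 read, a ratio inside each library that needs no normalization, were 1.29, 0.882 and 0.731 in WT and 0.611, 0.270 and 0.457 in HxD. They were 0.474, 0.216 and 0.248 in KO and 0.167, 0.172 and 0.364 in V. All 9 mutant ratios were below the lowest WT ratio. This pair was chosen after its values were seen, so the ratio is given without a test. Another such ratio, Sycp3 reads per Hormad1 read, overlapped between WT and each mutant group. It was at 1.14, 0.789 and 0.448 in WT and reached 0.528 in HxD, 0.713 in KO and 0.602 in V.

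The summed level was set beside that of Stra8, the retinoic acid target that switches on meiotic genes. Stra8 was at 977, 423 and 247 CPM in WT and at 169, 175 and 74.6 CPM in HxD. It was at 73.9, 32.2 and 114 CPM in KO and at 45.8, 177 and 145 CPM in V. The 3 WT libraries had the same order for Stra8 as for the set, and KO2 was the lowest library in both. Other mutant libraries differed in rank: KO1 was the fifth of 12 for the set and the tenth for Stra8, V2 the eighth and the fourth, and V3 the fourth and the seventh. Pou5f1, the gene of the Oct4 reporter used for sorting and a marker of the earlier germ cell state, was at 318, 204 and 223 CPM in WT and between 349.8 and 747 CPM in the mutants. It was called higher in V (log2 1.14 ± 0.23, edgeR adjusted p = 0.0397) and not in KO (0.89 ± 0.23, edgeR adjusted p = 0.0519) or HxD (0.86 ± 0.23, edgeR adjusted p = 0.289). The part of the sort in these results was not tested.

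**Figure D4:**
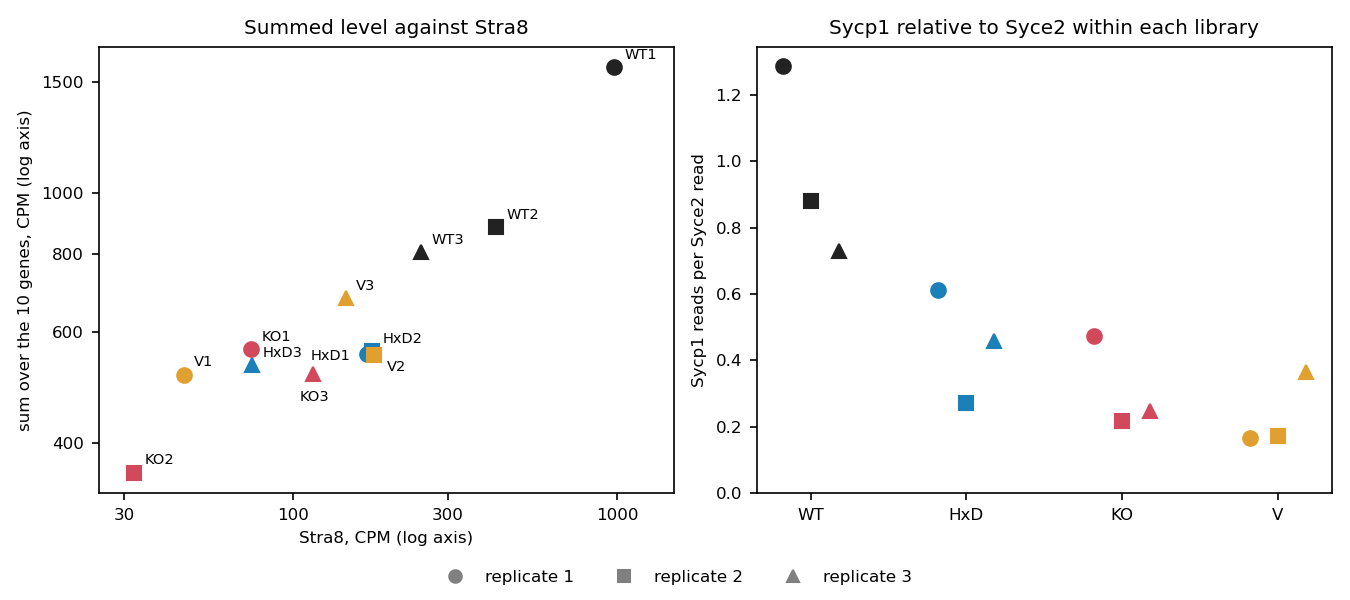
Left, the summed CPM of the 10 genes (vertical, log axis) against Stra8 CPM (horizontal, log axis), 1 point per library; right, Sycp1 reads per Syce2 read in each library by group. WT1 is at the top in both panels, KO2 has the lowest sum (359 CPM), and all 9 mutant ratios lie below the lowest WT ratio of 0.731.

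The mutants were also compared with each other. No gene of the set was called in HxD vs KO, V vs KO or V vs HxD, none had an unadjusted p under 0.05 in edgeR, and DESeq2 and limma-voom called 0 as well. Over all genes tested 0% were called in each of these, and an unadjusted p under 0.05 in either direction was reached by 3.18% in HxD vs KO, 4.62% in V vs KO and 2.02% in V vs HxD. The largest differences in size were those of Syce3 in HxD vs KO (log2 -1.13 ± 0.84) and in V vs HxD (1.05 ± 0.84), a gene of few reads. For Sycp2 V was 0.82 ± 0.49 above KO, for Sycp3 V was 0.72 ± 0.43 above both KO and HxD, and for Sycp1 the difference of V from HxD was -0.57 ± 0.33. Syce1 and 4930447C04Rik were higher in HxD than in KO by 0.49 ± 0.25 and 0.46 ± 0.25. For Syce2 HxD and KO differed by 0.00 ± 0.19. With SEs from 0.19 (Syce2) to 0.84 (Syce3), differences between mutants of well over 2 SE could have gone uncalled. Against WT, for example, Sycp1 in HxD was not called at a log2 fold change of -1.71 ± 0.34.

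Genes that act with the set were followed in 41 others, 39 of them tested: regulators of meiotic entry, axis cohesin, break formation, recombination, telomere attachment and paralogues. The lists were chosen with earlier results of these data known, so the shares below are a description. In KO 7 of the 39 were called lower and 0 higher (0.495% and 0.724% of all genes), with a median log2 fold change of -1.34. They included Gm4969 (Meiosin; -2.95 ± 0.44, edgeR adjusted p = 0.000696), Stra8 (-2.90 ± 0.45, adjusted p = 0.000907), Dmc1, the meiotic strand exchange recombinase (-1.55 ± 0.25, adjusted p = 0.00162) and Dazl, an RNA-binding protein that licenses germ cells for meiosis (-1.15 ± 0.19, adjusted p = 0.00217). Of the 4 axis cohesin genes 1 was called lower in KO, of 16 recombination genes 2, of 5 entry regulators 4, and of 8 break formation and 5 telomere attachment genes 0. At an unadjusted p under 0.05, 4 of the break formation and 3 of the telomere attachment genes were lower in KO, against 5.68% of all genes.

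In V 3 of the 39 were called lower (0.0866% of all genes), Dazl (-1.22 ± 0.19, edgeR adjusted p = 0.00312), Stra8 (-2.16 ± 0.43, adjusted p = 0.0338) and Tex15, a recombination and piRNA pathway protein (-1.02 ± 0.22, adjusted p = 0.0486), and the median was -1.07. In HxD only Dazl was called lower, against 0.0247% of all genes (-1.09 ± 0.19, edgeR adjusted p = 0.0197), and the median was -1.01. For the average of the mutants 10 were called lower and 0 higher (0.637% and 0.588% of all genes), led by Dazl, Stra8, Gm4969 and Dmc1. Without WT1 these counts were 0 in HxD, 5 in KO, 1 in V and 4 for the average. Calls over all genes tested were then 1, 31, 10 and 29, against 5, 197, 25 and 198 with WT1. The medians of the partner genes lie close to those of the synaptonemal complex set in each comparison, and the difference between the lists was not tested.

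Across the 12 libraries the 10 genes varied together: Pearson's r of log2(CPM + 1) between pairs ran from 0.456 (Sycp2 with Syce2) to 0.892 (Sycp3 with Hormad1), with a median of 0.755 over 45 pairs. Without WT1 the median was 0.520 and the lowest 0.0487, so the values rest in part on that library. Pairs share their libraries and the genotype differences, and after subtracting each group's mean r ran from -0.252 to 0.944, with a median of 0.611. WT1 was kept in that step, which was not repeated without it. Correlations between pairs of other genes were not computed. Outside the set, the genes closest to the mean standardized profile of the 10 genes, among 10392 with a mean of at least 5 CPM, were Cdkn1c (r = 0.958 over 12 libraries), Larp1b (0.943), Terb1 (0.939), Saraf (0.936) and H2-D1 (0.935). Cdkn1c encodes a cell cycle inhibitor and Terb1 a protein that tethers meiotic telomeres and one of the 41 partner genes. Without WT1 Terb1 ranked first (r = 0.919) and Saraf second (0.909), while Cdkn1c ranked sixth. Stra8 ranked eighth of the 10392 with and without WT1 (r = 0.922 and 0.879). For Tet1 r was -0.380, and 0.0686 without WT1.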

How the data were processed

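The data were 12 RNA-seq libraries of sorted female germ cells. Per the labels' protocols, RNA from 5000 cells was oligo d(T)-selected. The authors deposited whole-number gene counts, not normalized. Trimming, alignment and counting used Trim Galore 0.6.7, STAR 2.7.10b and featureCounts 2.0.3, per the submitters' processing notes, which list GRCm39 and mm10 with no role for either. The sources used here do not give the strand setting or the rule for multi-mapping reads. Coordinates, promoters and exon lengths come from GRCm38 tables (GENCODE M21, RefSeq), matched by symbol for all 10 genes, and do not depend on the counting.

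Groups came from the sample titles. All 12 libraries were fitted together in edgeR 4.0.16 (R 4.3.3): TMM normalization, filterByExpr defaults, group as the only term, two-sided quasi-likelihood F test, Benjamini-Hochberg adjustment over 16166 genes, called at an adjusted p under 0.05. The SE was the log2 fold change divided by the square root of F. Alternatives were DESeq2 1.42.0, limma-voom (limma 3.58.1), other filters, scaling and library choices. Scripts were tested on simulated counts. Total counts of 18471158 to 29495313 gave at least 30 reads for each gene of the set in each library. The labels describe no molecular identifiers, so reads are not independent molecules. Replicates differed by more than sampling noise, so none was merged.

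Genes named were the 10 of the set in every comparison, Tet1, Pou5f1, up to 4 called partner genes per comparison with the smallest adjusted p, and the 5 genes nearest to the set's profile. Chpt1 was added for its overlap with Sycp3. The genes and lists were chosen with earlier results of these data known.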

Additional observations from a re-analysis of the deposited data

How the results depend on the processing

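Every gene of the set kept its direction below 0 in each comparison with WT under all 21 alternatives (20 for the average of the mutants, where fitting only the groups compared is the same fit), and between mutants 0 genes of the set were called under each of the 21. The number called changed. In HxD it was 0, and 1 with DESeq2 size factors in edgeR, 3 with DESeq2, 2 with limma-voom, 2 with limma-voom and quality weights, 4 with no filter on low counts and 3 with only the groups compared. Calls over all genes went from 5 to 7, 63, 15, 22, 71 and 20 in the same order. In KO the count of the set was 5 (197 over all genes). It was 7 with DESeq2 (487) and with no filter (464), and 6 with DESeq2 size factors (185) and with only the groups compared (189). It was 3 with limma-voom (187), with limma-voom and quality weights (112) and with a filter at a mean of 5 CPM (137). In V the count of the set was 1 (25 over all genes), and 2 with limma-voom and quality weights (145) and 3 with no filter (176). For the set, leaving out each library in turn gave 0 to 2 in HxD, 1 to 6 in KO, 0 to 2 in V and 2 to 7 for the average of the mutants. Over all genes it gave 1 to 35, 31 to 357, 2 to 110 and 29 to 313. The lowest counts of the set came without WT1 or KO2 in KO, without V1 in V and without WT1 for the average. The cause was not tested. Sycp1 was called in KO under all 21, and Sycp1 and Sycp2 for the average under all 20.

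With the replicate number as a block, 3 genes were called in HxD, 7 in KO, 1 in V and 6 for the average. Over all genes the block gave 22 calls in HxD, 285 in KO and 73 in V, against 5, 197 and 25 without it. Same-numbered libraries had correlations of their deviations between -0.172 and 0.138, and 3 of 12 correlated best with their own number. No pairing by number was visible in this, but with 3 libraries per group the check cannot exclude one.

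Calls over all genes ran from 1 to 71 in HxD (5 in the reported fit), 30 to 487 in KO (197), 2 to 176 in V (25) and 29 to 454 for the average (198), and reached 27 in HxD vs KO, 19 in V vs KO and 16 in V vs HxD, where 0 were reported. With DESeq2 size factors 95 of 185 calls were lower in KO, against 80 of 197, and 22 of 32 in V, against 14 of 25. Partner genes called ran from 0 to 9 in HxD, 5 to 13 in KO, 0 to 10 in V and 4 to 16 for the average. Syce3 and Tex12 had the fewest reads of the set and the widest errors, and the part of depth in this was not tested.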
